A study of Mus musculus with 3 samples.

Results

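Notch signalling passes between neighbouring cells. A ligand on one cell, such as *Dll4*, *Jag1* or *Jag2*, binds a Notch receptor on the next, the receptor is cut inside the membrane, and its freed intracellular part enters the nucleus and, with RBPJ, switches on Hes and Hey genes. In blood vessels this pathway is known for specifying arteries and for restraining sprouting, and in mural cells, the smooth muscle and pericytes around vessels, for their maturation. The 10 genes described here were 3 ligands (*Dll4*, *Jag1*, *Jag2*), the 4 receptors (*Notch1*, *Notch2*, *Notch3*, *Notch4*) and 3 target genes (*Hes1*, *Hey1*, *Heyl*). They are 10 of the 32285 genes in the count tables of 3 droplet single-cell libraries of mouse glomeruli, the filtering tufts of the kidney. The genes were selected on measured values of these libraries, the levels that put *Dll4* among the leading genes of an endothelial cluster of the untreated MRL/lpr library, so what follows is description. *Dll4* came second among the leading genes of that cluster, which restates the values used for the selection. The cluster held 44 control, 1336 untreated and 37 treated cells. Other endothelial clusters, made with no integration of the libraries, were uneven too. In the same order they held 2095, 113 and 110 cells, 3078, 99 and 29, and 347, 373 and 2654. The remaining ones held 24, 752 and 78, and 83, 1455 and 1904.

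The study asked how mesenchymal stem cells from human umbilical cord (hUC-MSCs) act on the glomeruli of MRL/lpr mice, which carry the lpr mutation of *Fas* and develop lupus nephritis spontaneously. Each condition was represented by 1 library, namely control mice, MRL/lpr mice without treatment (the model group), and MRL/lpr mice given 800000 hUC-MSCs each through the tail vein. By the study's methods the mice were bought as females at 6 to 8 weeks, MRL/lpr mice whose urine protein kept rising entered the model group at about 16 weeks, and the glomeruli were taken 21 days after treatment and freed with collagenase V, gradient centrifugation and differential adhesion. The labels name the first library only as a blank control and give neither its strain nor the number of mice in any library, so strain, disease and library cannot be told apart. Elsewhere the study used MRL/MpJ mice as controls to MRL/lpr mice. Its text does not name the strain of this control library. How far mice of one condition differ from each other was not measured, because each condition is a single library, and no test between conditions was made. All intervals below are exact 95% intervals and cover counting error only.

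The libraries held 90812138 to 103319588 unique molecular identifiers (UMIs, counted RNA molecules), and barcodes with at least 1000 UMIs and at most 10% mitochondrial UMIs numbered 11018 in the control, 14109 in the untreated and 16586 in the treated library, where about 8000 captured cells were stated. After removal of predicted doublets 10047, 12516 and 14385 cells were kept, at medians of 4910, 3633.5 and 2726 UMIs per cell. Pairs of libraries shared 41 to 64 of the barcodes with at least 1000 UMIs, before the mitochondrial and doublet filters, where 25.5 to 37.3 would be shared by chance. *Fas* read 378, 441 and 471 UMIs per 1000000 in endothelial cells of the control, untreated and treated libraries, which gives no check of the labels.

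Cells were clustered without any Notch gene and named from marker lists. Capillary endothelial-like cells (5271 in the control, 2362 in the untreated and 4135 in the treated library), arteriolar endothelial-like cells (400, 319 and 420), mesangial-like cells (901, 968 and 1472) and podocyte-like cells (2362, 821 and 147) carried the description. Smooth muscle and renin-like cells (47, 44 and 48) and matrix-rich stromal-like cells (0, 117 and 303) were small classes. Levels are given as CPM, the UMIs of a gene per 1000000 UMIs of the class. The summed level of the 10 glomerular capillary markers was 7806 to 11058 CPM in capillary-like cells and 2562 to 3743 CPM in arteriolar-like cells, whereas the 14 arteriolar markers summed to 7290 to 8824 CPM in arteriolar-like and 1462 to 2004 CPM in capillary-like cells. Podocyte markers summed to 31622 to 32646 CPM in podocyte-like cells. In the untreated library 1447 endothelial cells in 5 sub-clusters, and in the treated library 257 in 1 sub-cluster, were left out for markers of other cell types among their 10 leading genes, and they held *Dll4* at 47.4 to 138 CPM and 22.4 CPM. The treated one and 2 of the untreated ones (390 cells) had 2 such markers, and the other 3 (1057 cells) had 1 such marker and none of endothelium. One of these 3 (348 cells, with *Dll4* at 138 CPM) was led by *St6galnac5* and *Msr1* and had *Acta2* seventh, close to a control sub-cluster that was kept. With those 3 kept, *Dll4* was at 86.9 CPM in untreated capillary-like cells. Among stromal cells 110 control, 779 untreated and 673 treated cells, in 2, 6 and 4 sub-clusters, were left out by the same rule. A mesangial-like sub-cluster of 158 treated cells was led by the immune genes *Il1rn*, *Treml4* and *Cd86* and was kept.

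RNA of other cells moved with the libraries. The 9 macrophage and monocyte markers summed to 3.68, 108 and 221 CPM in the capillary-like cells of the control, untreated and treated libraries, and to 7.63, 75.1 and 318 CPM in the mesangial-like cells. The estimated share of free RNA was 3.69%, 9.36% and 7.57% in capillary-like, 4.60%, 9.37% and 15.7% in mesangial-like and 2.50%, 6.31% and 7.37% in podocyte-like cells. Its part in the results was not tested further than by subtracting the expected free RNA. This turned the sign of no ratio past 2-fold that it could be applied to. For untreated over control it could not be applied to *Notch3* in capillary-like and *Notch1* in podocyte-like cells, where a level fell below the expected one. It moved the log2 ratio of *Notch2* in capillary-like cells, untreated over control, from -0.06 to -1.12. *Notch1* in podocyte-like cells, treated over untreated, moved from 0.92 to 3.91. Barcodes with 1 to 100 UMIs hold free RNA alone, and the level of a gene in them times the share of free RNA in a class is the level expected from free RNA there.

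Promoters are shown for 3 members on which the results turn, *Dll4* and *Jag1*, the ligands that stood highest in one group of arteriolar-like cells, and *Notch4*, the receptor with the widest difference between libraries in mesangial-like cells. Each runs 5′ to 3′ from 250 bases before to 50 after the start of the gene in RefSeq (GRCm38.p6), at chr2:119325534-119325833 on the plus strand for *Dll4*, chr2:137116471-137116770 on the minus strand for *Jag1* and chr17:34564045-34564344 on the plus strand for *Notch4*. Capitals mark GC boxes (GGGCGG) and AP-1 sites (TGANTCA) on either strand.
Dll4: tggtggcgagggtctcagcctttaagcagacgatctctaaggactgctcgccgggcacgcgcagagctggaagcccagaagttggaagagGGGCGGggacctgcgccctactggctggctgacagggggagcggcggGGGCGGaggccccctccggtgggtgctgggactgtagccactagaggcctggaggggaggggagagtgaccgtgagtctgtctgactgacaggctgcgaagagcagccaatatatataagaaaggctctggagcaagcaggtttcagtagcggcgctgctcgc
Jag1: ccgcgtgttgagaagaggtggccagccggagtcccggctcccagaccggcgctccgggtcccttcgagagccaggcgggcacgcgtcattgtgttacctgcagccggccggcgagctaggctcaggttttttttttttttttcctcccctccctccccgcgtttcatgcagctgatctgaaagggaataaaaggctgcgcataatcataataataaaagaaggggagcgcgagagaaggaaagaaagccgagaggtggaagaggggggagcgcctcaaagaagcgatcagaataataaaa
Notch4: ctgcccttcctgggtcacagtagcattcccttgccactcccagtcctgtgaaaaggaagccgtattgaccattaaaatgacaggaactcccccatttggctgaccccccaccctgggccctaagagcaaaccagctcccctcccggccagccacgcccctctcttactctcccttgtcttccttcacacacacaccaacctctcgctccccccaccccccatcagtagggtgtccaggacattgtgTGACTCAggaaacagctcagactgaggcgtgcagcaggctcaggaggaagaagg
The *Dll4* window held 2 GC boxes, the *Jag1* window no marked motif and the *Notch4* window 1 AP-1 site. A promoter was found for 7 of the 10 genes (all ligands and receptors), of which 5 held a GC box and 1 an AP-1 site, where 35.7% and 7.81% of 32851 promoters of this length did. The core TGGGAA, the letters bound by RBPJ, was in none of the 7 and in 25.6% of all promoters. These are matches of letters and say nothing of binding.

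Among the ligands, *Dll4* (ENSMUSG00000027314, chr2:119325784-119335962, plus strand, GRCm38), the ligand of arterial and sprouting endothelium, was found at 71.5 CPM (interval 68.3 to 74.8) in capillary-like cells of the control library, at 85.2 CPM (79.7 to 91.0) in the untreated and at 39.8 CPM (36.8 to 42.9) in the treated library. The treated library was the lowest and the untreated the highest, and the 3 intervals did not overlap. In arteriolar-like cells *Dll4* read 70.6, 44.3 and 24.1 CPM from control to treated, with no overlap of intervals. Sub-clusters of this class held 184 and 7.55 CPM in the control and 318 and 11.8 CPM in the untreated library. Under alternative settings of the processing, the log2 ratio of untreated over control ran from -1.24 to 0.67. That of treated over untreated ran from -1.79 to 0.22. Mesangial-like cells held 6.77, 9.15 and 5.59 CPM and podocyte-like cells 0.427, 1.96 and 2.67 CPM, where 1.12, 2.80 and 3.41 CPM were expected from free RNA in mesangial-like and 0.606, 1.88 and 1.60 CPM in podocyte-like cells. The mesangial-like values thus lay above that level in all 3 libraries and the intervals of the podocyte-like ones held it. Capillary-like cells held 86.0%, 44.2% and 72.1% of all *Dll4* UMIs of the control, untreated and treated libraries, arteriolar-like cells 5.86%, 4.41% and 5.21%, and cells outside the named classes, which include the endothelial cells left out, 4.57%, 47.8% and 16.5%.

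The share of capillary-like cells with a *Dll4* UMI was 24.9% in the control, 26.0% in the untreated and 12.8% in the treated library. With each cell thinned to 1000 UMIs it was 6.36% (335 of 5271 cells, interval 5.71 to 7.05), 9.10% (7.97 to 10.3) and 3.87% (3.30 to 4.50), in the same order of libraries. The untreated level is the one the genes were selected on. With only barcodes of at least 2000 UMIs, the log2 ratio of the *Dll4* level in untreated over control cells was -0.032. In podocyte-like cells, which should lack the gene, the thinned shares were 0.0847%, 0.731% and 0.680%, at median depths of 6667.5, 7204 and 6874 UMIs against 4292, 3709 and 3034 in capillary-like cells.

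*Jag1* (ENSMUSG00000027276, chr2:137081456-137116644, minus strand), a ligand of arterial endothelium and of the vessel wall, marked the arteriolar-like cells, with 210 CPM (189 to 232) in the control, 98.3 (85.0 to 113) in the untreated and 113 (98.5 to 129) in the treated library. A single treated cell held 59 of the 225 *Jag1* UMIs, where the next held 12, and without it the treated level was 84.3 CPM (71.9 to 98.1). Capillary-like cells held 10.4, 8.78 and 7.01 CPM, where 0.792, 2.66 and 2.26 CPM were expected from free RNA. Smooth muscle and renin-like cells held 132, 108 and 82.8 CPM, from 15 to 30 UMIs a library, with intervals that overlapped each other and, in the MRL/lpr libraries, those of the arteriolar-like cells. In mesangial-like cells *Jag1* was at 30.5, 33.9 and 38.0 CPM.

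*Jag2* (ENSMUSG00000002799, chr12:112907819-112929776, minus strand), another endothelial ligand, was at 22.2 CPM (20.5 to 24.1), 50.2 (46.0 to 54.7) and 60.0 (56.3 to 63.8) in capillary-like cells and at 88.4, 130 and 158 CPM in arteriolar-like cells of the control, untreated and treated libraries. In both classes the control was the lowest and the treated library the highest. The level in nearly empty barcodes went the same way, from 12.6 to 18 and 35.5 CPM, while mesangial-like cells stayed between 5.24 and 5.38 CPM, where 0.579, 1.69 and 5.57 CPM were expected from free RNA.

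**Figure D1:**
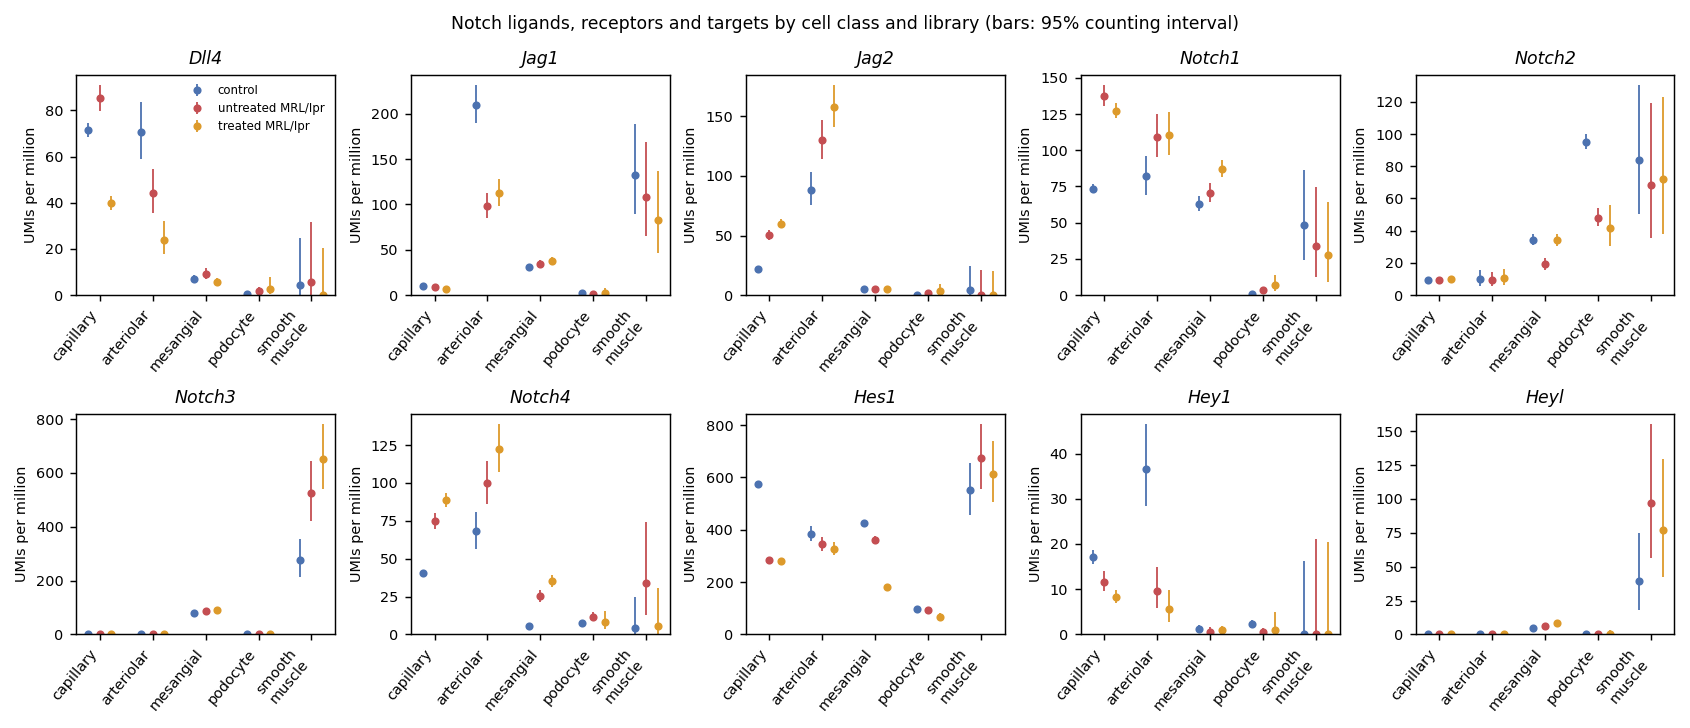
Level of each of the 10 genes in CPM (UMIs per 1000000 UMIs of the class, vertical axis) in 5 cell classes (horizontal axis) and 3 libraries (colours). Points are values of 1 library and bars exact 95% counting intervals. In capillary-like cells Dll4 was at 71.5, 85.2 and 39.8 CPM and Hes1 at 574, 285 and 280, and Notch3 and Heyl were highest in smooth muscle and renin-like cells.

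Of the receptors, *Notch1* (ENSMUSG00000026923, chr2:26457903-26516663, minus strand), the receptor through which *Dll4* acts in endothelium, was found in both endothelial classes and in mesangial-like cells. Capillary-like cells held 73.6 CPM (70.4 to 76.9) in the control, 138 (131 to 145) in the untreated and 127 (122 to 133) in the treated library, so the control stood below both MRL/lpr libraries. The arteriolar-like values were 81.9, 109 and 111 CPM and the mesangial-like values 63.1, 70.4 and 87.1 CPM. Nearly empty barcodes held 33.3, 57.6 and 71.4 CPM, a difference in the same direction. Podocyte-like cells held 0.732, 3.76 and 7.13 CPM, from 12, 23 and 8 UMIs. There 0.831, 3.63 and 5.26 CPM were expected from free RNA, and the interval of each library held that level.

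*Notch4* (ENSMUSG00000015468, chr17:34564268-34588503, plus strand), a receptor largely restricted to endothelium, was at 40.3 CPM (37.9 to 42.8), 74.8 (69.6 to 80.3) and 88.4 (84.0 to 93) in capillary-like cells and at 67.9, 99.8 and 122 CPM in arteriolar-like cells of the control, untreated and treated libraries. The order was control, untreated, treated in both classes, and in capillary-like cells no intervals overlapped. In mesangial-like cells it was at 5.53 CPM (4.2 to 7.15) in the control against 25.2 (21.5 to 29.5) and 35.1 (31.5 to 39.1) in the MRL/lpr libraries. Beside this, nearly empty barcodes held 19.1, 33.7 and 49.3 CPM of *Notch4*, which gives 0.880, 3.15 and 7.72 CPM expected from free RNA, and the 10 general endothelial markers summed to 897, 1609 and 2291 CPM in these mesangial-like cells. Their part in the difference was not tested.

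*Notch2* (ENSMUSG00000027878, chr3:98013527-98150361, plus strand), a receptor needed for nephron formation, was found in podocyte-like cells at 95.3 CPM (90.6 to 100.2) in the control, 48.0 (42.7 to 53.9) in the untreated and 41.9 (30.8 to 55.7) in the treated library, the control standing apart from both. From free RNA 1.18, 3.85 and 5.54 CPM were expected there, below the measured level in each library, and nearly empty barcodes went the other way, with 47.4, 61.1 and 75.2 CPM. Podocyte-like cells held 58.3% of all *Notch2* UMIs in the control but 8.86% and 1.38% in the MRL/lpr libraries, where 83.4% and 82.3% lay outside the named classes. Smooth muscle and renin-like cells held 83.7, 68.4 and 71.8 CPM, from 12 to 19 UMIs. Mesangial-like cells held 34.4, 19.1 and 34.2 CPM, the untreated library being the lowest, and both endothelial classes read between 9.07 and 10.5 CPM in every library. Expected from free RNA were 1.75, 5.72 and 5.70 CPM in capillary-like and 1.75, 4.08 and 4.45 CPM in arteriolar-like cells, so more of the level in the MRL/lpr libraries was expected from it.

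*Notch3* (ENSMUSG00000038146, chr17:32120820-32166852, minus strand), the receptor of mural cells, was at 277 CPM (213 to 355), 524 (423 to 643) and 652 (539 to 780) in smooth muscle and renin-like cells of the control, untreated and treated libraries. The control was lowest and its interval lay below the others, from 63, 92 and 118 UMIs. The smooth muscle and renin markers of that class differed too, at 13842 CPM in the control and 21659 and 21626 CPM in the MRL/lpr libraries, as did the mesangial markers, at 7910, 4121 and 4379 CPM. In mesangial-like cells *Notch3* was at 78.9, 86.8 and 90.9 CPM with overlapping intervals between neighbours. Endothelial and podocyte-like cells held 0.488 to 2.67 CPM, where 0.482 to 1.99 CPM were expected from free RNA (19.3, 17.4 and 26.3 CPM in nearly empty barcodes).

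*Hes1* (ENSMUSG00000022528, chr16:30064384-30067796, plus strand), a transcriptional repressor and general Notch target that also answers to other signals, was at 574 CPM (565 to 584) in capillary-like cells of the control library, 285 (275 to 295) in the untreated and 280 (272 to 288) in the treated library. The control was about 2-fold above both MRL/lpr libraries, whose intervals overlapped. Arteriolar-like cells held 385, 345 and 326 CPM and smooth muscle and renin-like cells 550, 673 and 613 CPM. In mesangial-like cells the treated library was the low one, with 425 CPM (412 to 437) in the control, 361 (346 to 376) in the untreated and 179 (171 to 188) in the treated library. Podocyte-like cells held 98.0, 94.6 and 65.9 CPM, where 6.17, 10.8 and 13.4 CPM were expected from free RNA.

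*Hey1* (ENSMUSG00000040289, chr3:8663359-8667256, minus strand), a repressor downstream of Notch in arterial endothelium, was found at 17.0 CPM (15.5 to 18.7), 11.7 (9.69 to 14.0) and 8.33 (7.0 to 9.84) in capillary-like cells and at 36.7 (28.5 to 46.5), 9.57 (5.76 to 15) and 5.51 (2.75 to 9.87) CPM in arteriolar-like cells. The control was highest in both classes, and the arteriolar-like values rested on 68, 19 and 11 UMIs, where 0.172, 0.417 and 0.189 CPM were expected from free RNA (4.66, 6.25 and 3.20 CPM in nearly empty barcodes). *Heyl* (ENSMUSG00000032744, chr4:123233556-123249875, plus strand), a related repressor known from mural cells, was all but missing from endothelium, with 0, 0 and 2 UMIs in capillary-like cells (for a count of 0 the interval reached 0.137 CPM in the control and 0.356 CPM in the untreated library). It was at 4.39, 5.84 and 8.65 CPM in mesangial-like cells, where the smooth muscle and renin markers summed to 55.9, 272 and 476 CPM and the matrix-rich markers to 702, 1387 and 2225 CPM in the same order, whose part in the values was not tested, and at 39.6, 96.9 and 77.3 CPM, from 9 to 17 UMIs, in smooth muscle and renin-like cells. Nearly empty barcodes held 2.64, 2.08 and 1.60 CPM, which gives 0.122, 0.195 and 0.251 CPM expected from free RNA in mesangial-like cells.

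Untreated MRL/lpr cells were then set against control cells within each class, as log2 ratios of CPM. A gene was compared with at least 20 UMIs in both libraries together. In capillary-like cells *Jag2* was higher by 1.18 (interval 1.00 to 1.35), *Notch1* by 0.90 (0.81 to 1.00), *Notch4* by 0.89 (0.76 to 1.03) and *Dll4* by 0.25 (0.14 to 0.37), whereas *Hes1* had a log2 ratio of -1.01 (-1.07 to -0.96) and *Hey1* of -0.54 (-0.85 to -0.25). The *Dll4* ratio was small and fell to -0.032 with at least 2000 UMIs per barcode. The ligand *Jag2* and the receptors *Notch1* and *Notch4* were above, and the target *Hes1* below, the control in all 14 alternatives. *Hey1* was below it in 13 and at 0.26 with the members used for clustering. *Jag1* was at -0.24 and *Notch2* at -0.06, with intervals that held 0. With expected free RNA subtracted *Notch2* was at -1.12, the 1 alternative of 14 in which it passed 2-fold. *Notch3*, at 1.05, rested on 16 and 20 UMIs. Of 9 genes compared, 2 (*Jag2* and *Notch3*) were at least 2-fold higher, where 9.82% of 14201 genes were, and 1 (*Hes1*) was at least 2-fold lower, where 6.66% were.

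In arteriolar-like cells the vessel-wall ligand *Jag1* had a log2 ratio of -1.09 (-1.35 to -0.84), *Hey1* of -1.94 (-2.75 to -1.19) and *Dll4* of -0.67 (-1.08 to -0.27), and *Jag2*, *Notch4* and *Notch1* were higher by 0.56, 0.55 and 0.42. *Hes1* was at -0.16 and *Notch2* at -0.10. Over the alternatives *Jag1* reached 0.19, with barcodes called by an order-of-magnitude threshold, *Dll4* ran from -1.24 to 0.67 and *Jag2* from 0.48 to 1.32, past 2-fold in 7 of 14. None of 8 genes was at least 2-fold higher and 2 were at least 2-fold lower, beside 6.1% and 6.32% of 9741 genes. In mesangial-like cells *Notch4* was higher by 2.19 (1.75 to 2.65) and *Notch2* had a log2 ratio of -0.85 (-1.16 to -0.55), and *Hes1* of -0.24 (-0.31 to -0.16). *Dll4* was at 0.43, *Heyl* at 0.41, *Notch1* at 0.16, *Jag1* at 0.15, *Notch3* at 0.14 and *Jag2* at 0.03, all with intervals that held 0. The counts past 2-fold were 1 higher and 0 lower of 9, beside 9.88% and 6.5% of 12850 genes. In podocyte-like cells the receptor *Notch2* had a log2 ratio of -0.99 (-1.17 to -0.81) and *Hes1* of -0.05 (-0.19 to 0.09), while *Notch4* was at 0.59 (0.15 to 1.02) and *Jag1* at -0.69 (-1.92 to 0.38). Of 6 genes 1 was at least 2-fold higher, *Notch1* at 2.36 with 23 against 12 UMIs, and 1 lower, *Hey1* at -2.24 with 3 against 38 UMIs, beside 9.07% and 6.66% of 12375 genes. The intervals of both *Notch1* levels held the level expected from free RNA (3.63 CPM in the untreated and 0.831 CPM in the control library).

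Treated cells were set against untreated MRL/lpr cells, a comparison that shares the untreated library with the one above. In capillary-like cells *Dll4* had a log2 ratio of -1.10 (-1.25 to -0.95) and *Hey1* of -0.49 (-0.85 to -0.12), *Jag2* and *Notch4* were higher by 0.26 (0.10 to 0.41) and 0.24 (0.11 to 0.37), and *Hes1* was at -0.02 (-0.09 to 0.04). *Jag1* was at -0.32, *Notch1* at -0.11, *Notch2* at 0.10 and *Notch3* at 0.01. *Dll4* was the 1 gene of 9 past 2-fold, and was lower. The untreated *Dll4* level, on which the genes had been selected, enters this ratio and the one over the control. Among 14075 genes 6% were at least 2-fold higher and 4.27% lower. The median log2 ratio of all genes here was 0.14, and scaling by the median of ratios moved every value by -0.13, which leaves *Jag2* at 0.13 and *Notch4* at 0.11.

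Arteriolar-like cells had *Dll4* at -0.88 (-1.42 to -0.36), which over the alternatives ran from -1.79 with thinned cells to 0.22 with the class of each cell taken from its own markers. *Jag1* was at 0.20 (-0.08 to 0.48) and, without the single cell of 59 UMIs, at -0.22. *Notch4* was at 0.29, *Jag2* at 0.28, *Notch2* at 0.21, *Notch1* at 0.02, *Hes1* at -0.08 and *Hey1* at -0.80, the last from 11 and 19 UMIs, and no gene of 8 passed 2-fold in either direction, beside 2.71% and 3.08% of 9844 genes. Mesangial-like cells had *Hes1* at -1.01 (-1.10 to -0.92), *Notch2* at 0.84 (0.53 to 1.15), *Notch4* at 0.48 (0.20 to 0.76) and *Dll4* at -0.71 (-1.28 to -0.15), which ran from -2.54 with doublet calls kept to 0.047 with thinned cells and passed 2-fold in 8 of 15 alternatives. *Heyl* was at 0.57, *Notch1* at 0.31, *Jag1* at 0.16, *Notch3* at 0.07 and *Jag2* at 0.00. The treated *Notch2* level was uneven, with 118 CPM in a sub-cluster of 240 cells at a median of 1474 UMIs, 67.3 in one of 102 cells led by *Ube2c* and *Mki67*, 53.1 in the immune-led one and 19.4 to 31.0 in the other 4, where the 5 untreated ones held 14.9 to 24.4 CPM. Without the first and the immune-led one the *Notch2* ratio was 0.44, and it ran from 0.28 to 1.73 over all alternatives. These cells had 0 genes of 9 at least 2-fold higher and 1, *Hes1*, lower, beside 7.94% and 4.16% of 13190 genes. The same scaling moved mesangial-like values by -0.14. In the 147 treated podocyte-like cells *Hes1* was at -0.52 (-0.89 to -0.17) and *Notch2* at -0.20 (-0.67 to 0.25), *Notch4* was at -0.55 and *Notch1* at 0.92 from 8 to 72 UMIs a library, and none of 4 genes passed 2-fold, beside 4.1% higher and 4.45% lower of 10619 genes.

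**Figure D2:**
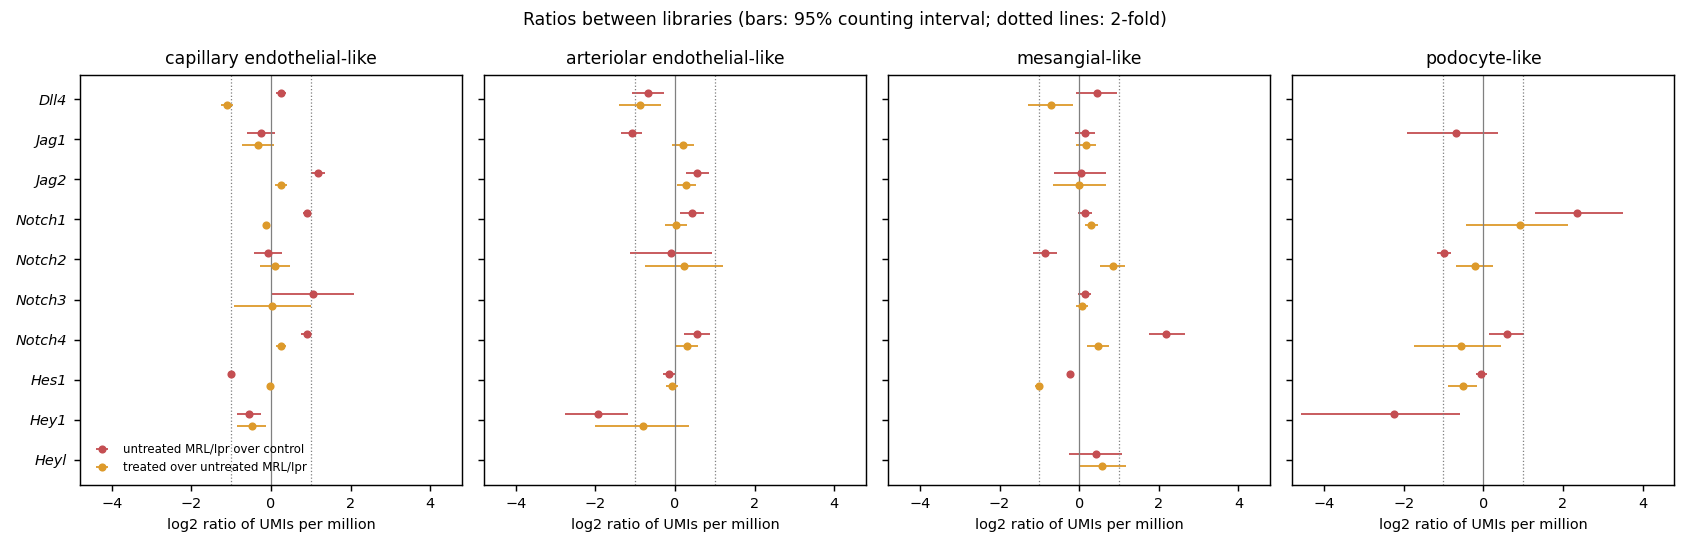
Log2 ratio of CPM (horizontal axis) for each gene (vertical axis) in 4 classes, for untreated MRL/lpr over control and treated over untreated MRL/lpr. Bars are 95% counting intervals and dotted lines mark 2-fold. Genes with fewer than 20 UMIs in both libraries together have no point. In capillary-like cells Hes1 stood at -1.01 and -0.02 and Dll4 at 0.25 and -1.10.

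Sub-clusters of at least 50 cells within each library showed how far cells of a class varied, and none of them is a replicate. *Dll4* ran from 17.4 to 118 CPM over 11 capillary-like sub-clusters of the control, from 17.3 to 161 over 8 of the untreated and from 9.03 to 94.5 over 12 of the treated library, so the spread within a library exceeded the difference between libraries. The highest control sub-cluster (482 cells) was led by *Msr1*, *St6galnac5* and *Acta2* and held *Hey1* and *Gja5* among its leading genes. The highest untreated sub-cluster (548 cells) was led by *Tnfrsf11b*, *Spp2* and *Dll4* itself, and the highest treated one (285 cells) by *Dnah2os*, *Hilpda* and *Dll4*. The lowest control and untreated sub-clusters (399 and 398 cells) both had *Plvap*, a gene of fenestral diaphragms, among their leading genes. *Plvap* stood in the list of peritubular or venous markers, and *Calca*, which led the control one, in the arteriolar list. They held 399 of 5271 control and 398 of 2362 untreated capillary-like cells. The part of these proportions in the *Dll4* ratio was not tested.

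For *Hes1* the control sub-clusters lay apart from those of the MRL/lpr libraries. Sub-clusters were made within each library, and for how many genes they lie apart like this was not counted. The 11 control capillary-like sub-clusters, at 404 to 832 CPM, all lay above the 8 untreated ones, at 257 to 310 CPM, and the 12 treated ones, at 207 to 356 CPM. *Jag2* lay at 16.1 to 27.5 CPM over the control sub-clusters, below all of the untreated ones (35.7 to 75.3 CPM), and below 11 of the 12 treated ones (36.4 to 105 CPM). The remaining treated one, at 19.7 CPM, held 55 cells at a median of 1384 UMIs, was led by the haemoglobin genes *Hbb-bt* and *Hbb-bs* and had *Ptprc*, a gene of leukocytes, among its leading genes. In mesangial-like cells the 7 treated sub-clusters held *Hes1* at 118 to 199 CPM and the 5 untreated ones at 344 to 412 CPM, and the immune-led sub-cluster was the lowest of the treated ones. Stromal sub-clusters left out for markers of other cell types held *Hes1* at 222 to 419 CPM in the untreated and 127 to 233 CPM in the treated library, ranges that overlapped. Among smaller mesangial-like sub-clusters the gap closed, with treated ones of 48 and 12 cells at 299.8 and 225 CPM and an untreated one of 34 cells at 283 CPM. *Notch4* there was at 1.81 to 7.74 CPM over 8 control, 20.6 to 32.2 over 5 untreated and 21.5 to 53.6 CPM over 7 treated sub-clusters, while the treated one of 48 cells held none.

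**Figure D3:**
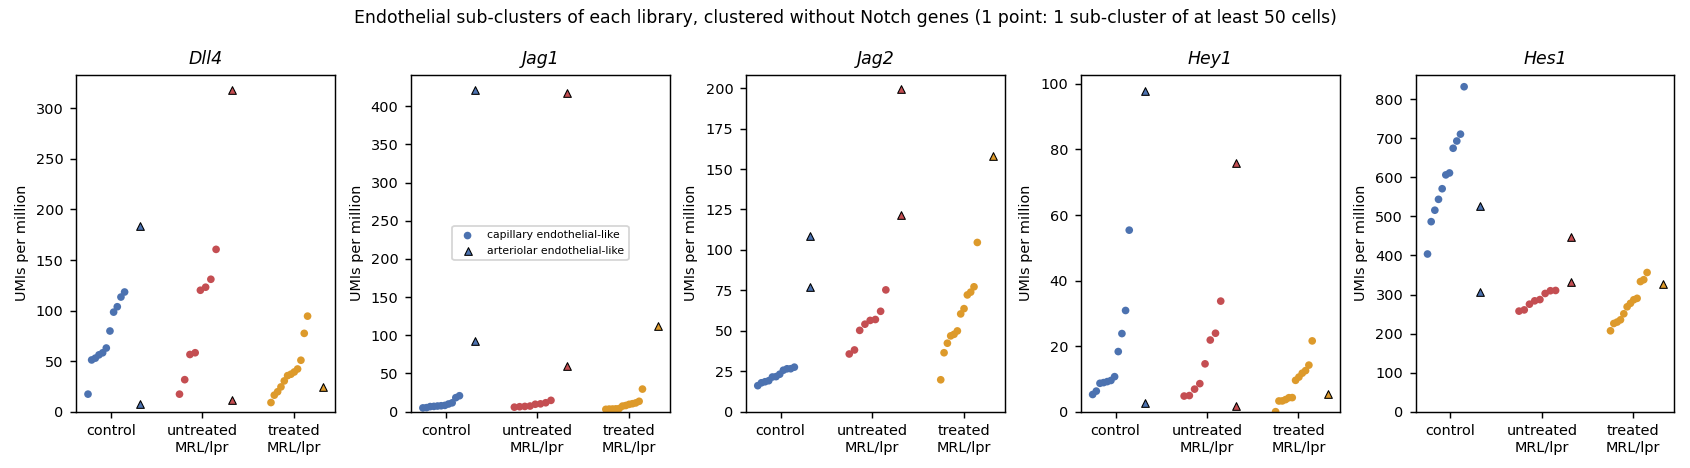
Levels of 5 genes in CPM (vertical axis) in each endothelial sub-cluster of at least 50 cells, by library (horizontal axis and colour). Circles are capillary-like and triangles arteriolar-like sub-clusters. Within the control and untreated libraries 1 arteriolar-like sub-cluster held Dll4 at 184 and 318 and the other at 7.55 and 11.8 CPM.

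Capillary-like cells were set against arteriolar-like cells of the same library. *Jag1* had log2 ratios of -4.34 (-4.56 to -4.11) in the control, -3.48 (-3.86 to -3.12) in the untreated and -4.01 (-4.34 to -3.68) in the treated library (-3.59 without the single cell of 59 UMIs), and *Jag2* of -1.99, -1.37 and -1.40. Both Jagged ligands were thus higher in arteriolar-like cells of all 3 libraries, and so was *Notch4*, at -0.75, -0.42 and -0.47. *Dll4* was at 0.02 (-0.24 to 0.28) in the control and at 0.94 (0.63 to 1.28) and 0.73 (0.30 to 1.18) in the MRL/lpr libraries. *Hes1* was at 0.58, -0.28 and -0.22 and *Hey1* at -1.11, 0.29 and 0.60, and the control value of *Hey1* was 0.090 with each cell named from its own markers. *Notch1* was at -0.16, 0.33 and 0.20 and *Notch2* between -0.12 and 0.00, and *Notch3* had 1 to 3 arteriolar UMIs a library.

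In the control library 0 of 9 genes were at least 2-fold higher and 3 (*Jag1*, *Jag2*, *Hey1*) lower in capillary-like cells, beside 9.25% and 7.27% of 13445 genes. In the untreated library 0 of 8 were higher and 2 (*Jag1*, *Jag2*) lower, beside 9.36% and 5.17% of 12235 genes. In the treated library 0 of 9 were higher and 2 (*Jag1*, *Jag2*) lower, beside 10.8% and 4.21% of 13267 genes, and the scaling shift there was -0.12.

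The arteriolar-like class was not uniform. In the control library a sub-cluster of 152 cells led by *Igfbp3*, *Vegfc* and *Gad1*, with the arterial gap junction gene *Gja5* among its leading genes, held *Dll4* at 184, *Jag1* at 420 and *Hey1* at 98.0 CPM. The other 248 cells, with *Rgs16* and *Fxyd6* among their leading genes, held 7.55, 92.3 and 2.52 CPM. The untreated library had the same pair, with *Dll4* at 318, *Jag1* at 418 and *Hey1* at 75.9 CPM in 65 cells led by *Igfbp3*, and 11.8, 60.3 and 1.69 CPM in 254 cells led by *Tspan8*. The 420 treated cells formed 1 sub-cluster, led by *Tspan8*. The cells of these sub-clusters were in different proportions in the libraries (152 of 400, 65 of 319), and the part of these proportions in the arteriolar-like ratios between libraries was not tested.

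To see this in all 3 libraries, arteriolar-like cells with a *Gja5* UMI (70, 25 and 21 cells) were set against those without (330, 294 and 399), a split chosen after the values had been seen. *Dll4* was higher in the cells with *Gja5* by log2 ratios of 1.99 (1.47 to 2.50) in the control, 3.53 (2.89 to 4.17) in the untreated and 2.33 (1.21 to 3.33) in the treated library. *Jag1* was higher by 1.28 (0.97 to 1.58), 1.62 (1.04 to 2.16) and 3.6 (3.21 to 4.00), the last falling to 2.55 (1.97 to 3.10) without the single cell of 59 UMIs, and *Hey1* by 2.74 (2.01 to 3.5), 3.40 (1.89 to 4.85) and 2.67 (0.12 to 4.73), the last from 3 and 8 UMIs. *Hes1* was at 0.23, 0.00 and -0.05 and *Jag2* at 0.15, 0.04 and 0.94, and every interval for *Hes1* held 0. The single cell of 59 *Jag1* UMIs held 25103 of the 111155 UMIs of the treated cells with *Gja5*. Only *Jag1* was recomputed without it in this split. In the control and untreated libraries the split restates what the sub-clusters with *Gja5* had shown, and the treated library had no such sub-cluster. Of the receptors, *Notch1* was higher by 0.84 (0.30 to 1.36) in the control and 0.83 (0.11 to 1.48) in the treated library and at 0.64 (-0.08 to 1.29) in the untreated one, and *Notch4* was higher by 1.09 (0.51 to 1.64) and 0.94 (0.24 to 1.57) in the control and untreated libraries, while in the treated library *Notch4* was at 0.25 (-0.58 to 0.98). *Notch2* had 18 to 21 UMIs a library, 0 to 4 of them in cells with *Gja5*.

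**Figure D4:**
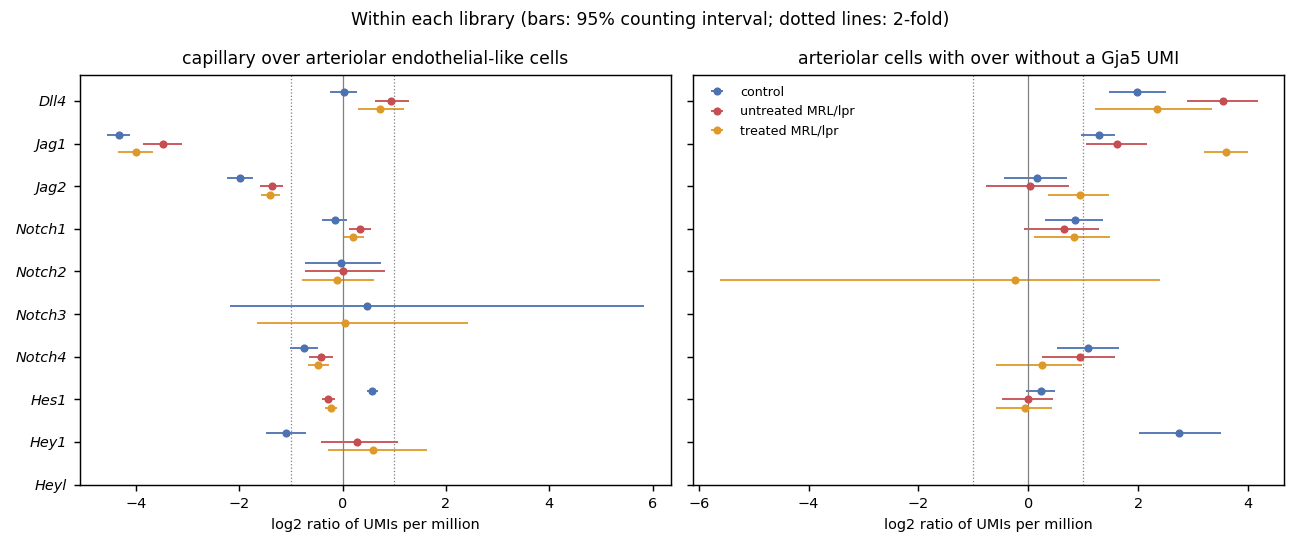
Log2 ratios of CPM within each library, for capillary-like over arteriolar-like cells (left) and for arteriolar-like cells with over without a Gja5 UMI (right). Bars are 95% counting intervals, dotted lines mark 2-fold, and genes with fewer than 20 UMIs in both groups together have no point. Jag1 lay at -4.34, -3.48 and -4.01 on the left, and Dll4 at 1.99, 3.53 and 2.33 on the right.

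Within capillary-like cells thinned to 1000 UMIs, cells with a *Dll4* UMI were set against cells without. *Notch4* had log2 ratios of 0.62 (-0.11 to 1.27) in the control, 0.59 (-0.08 to 1.20) in the untreated and 0.79 (0.16 to 1.36) in the treated library. *Hes1* was at 0.32 (0.12 to 0.51) in the control, where 243 UMIs lay in the cells with *Dll4*, and at -0.08 (-0.50 to 0.31) and -0.06 (-0.54 to 0.38) in the MRL/lpr libraries. Of 3 endothelial markers set beside them, *Kdr*, the VEGF receptor, was at 0.20, 0.31 and 0.29, *Ehd3* at 0.07, 0.31 and 0.20, and *Pecam1* at -0.05, 0.06 and -0.23, with intervals for *Pecam1* that held 0. *Notch1* was at -0.92 (-1.84 to -0.12), 0.29 (-0.26 to 0.80) and 0.10 (-0.59 to 0.71). *Jag2* was at 0.21, 0.05 and -0.57, and in the control *Hey1* was at 0.48, *Jag1* at 0.46 and *Notch2* at 1.08, from 4 to 9 UMIs in the cells with *Dll4*. Intervals for these 4 genes held 0 in all 3 libraries. These are descriptions of cells that share a library.

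Of a list of 42 other genes of the pathway, 36 had enough UMIs in capillary-like cells of the untreated and control libraries. Among these 1 was at least 2-fold higher and 0 lower, beside 9.82% and 6.66% of all genes, and the median log2 ratio was 0.05, where that of all genes was 0.01. The gene past 2-fold was *Dlk1*, a Notch ligand-like protein, with 3 UMIs in the control, 117 in the untreated and 197 in the treated library (0.112, 11.3 and 11.8 CPM) and a log2 ratio of 6.66 (5.08 to 8.96). Arteriolar-like cells had 0, 0 and 1 *Dlk1* UMIs. Next in size were the adaptor gene *Numbl* at 0.72 (-0.01 to 1.44) and the ligand *Dll1* at 0.67 (0.35 to 0.97). Between treated and untreated capillary-like cells 0 of 37 passed 2-fold in either direction, beside 6% higher and 4.27% lower of all genes, with a median of 0.26 against 0.14 for all genes, and the largest ratios were -0.91 for *Numbl* and 0.90 and 0.85 for *Maml3* and *Maml2*, coactivators of the nuclear complex. Between untreated and control arteriolar-like cells 0 of 33 were at least 2-fold higher and 3 lower, beside 6.1% and 6.32% of all genes, namely the targets *Nrarp* at -1.24 and *Hey2* at -1.80 and the ubiquitin ligase gene *Dtx2* at -1.16, named after their values were seen. *Nrarp* and *Hey2* were also the 2 list genes of 35 lower in capillary-like than in arteriolar-like cells of the control library, at -2.07 and -1.46, where 7.27% of all genes were. In that comparison 1 of 36 list genes was higher in the untreated library (*Dlk1*) and 2 of 36 in the treated library (*Dlk1* and *Maml3*), and none was lower, where 9.36% and 10.8% of all genes were higher.

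In mesangial-like cells 1 of 34 list genes was at least 2-fold higher in the untreated than in the control library (*Dtx4* at 1.26, with 26 against 18 UMIs) and 2 of 36 in the treated than in the untreated library (*Dtx4* at 1.00, with 78 against 26 UMIs, and *Dlk1*, with 29 against 0 UMIs), beside 9.88% and 7.94% of all genes. In podocyte-like cells 2 of 35 were lower in the untreated library (*Dtx2* at -1.60 and *Dtx4* at -1.25) and 1 of 31 was higher in the treated library (*Maml2* at 1.23), beside 6.66% and 4.1% of all genes.

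The genes most like *Dll4* and *Hes1* were ranked by Pearson's r of log2(CPM + 1) over 12 combinations of class and library, among 12559 genes. For *Dll4* these were *Cdkn1a* (r = 0.981), *Pgm2*, *Ubald2*, *Isg20* and *Taf1d*, and for *Hes1* they were *Gm20536* (r = 0.967), *0610043K17Rik*, *Plekhm2*, *Stx12* and *Cdc42ep4*. The points share libraries and classes and are not independent. With a pseudocount of 10 in place of 1, 2 of the 5 names were the same for *Dll4* and 4 of 5 for *Hes1*.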

How the data were processed

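For each of 3 groups, taken from the treatment label, 1 droplet library of glomerular cells was sequenced. The authors deposited raw UMI counts per gene and barcode for each library, made with Cell Ranger (the file headers name another version than the methods do), and the submitters' processing notes also name STAR and mm10. Of the 32285 gene IDs 32158 were found in GENCODE M21 (99.6%), which gave coordinates on GRCm38. The members and lists were chosen with earlier results of these data known.

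Barcodes with at least 1000 UMIs and at most 10% mitochondrial UMIs were kept. Doublets were called per library with Scrublet in scanpy (0.8% per 1000 barcodes) and left out. The 3 libraries were clustered together, with no integration, from 2000 variable genes without members or pathway genes, 10 principal components and 15 neighbours (Leiden resolution 1, seed 0), and endothelial and stromal cells again per library. A podocyte-like cluster needed 3 of its markers in at least 10% of cells and at least 2-fold above all other cells. Arteriolar-like, venous, matrix-rich and smooth muscle sub-clusters needed 3 such markers 2-fold above the rest of their compartment (endothelial or stromal). The remaining sub-clusters were named capillary-like or mesangial-like if 3 markers were 2-fold above cells of the library outside the compartment. Capillary-like sub-clusters were thus not required to exceed other endothelium. Sub-clusters with 2 markers of another cell type among their 10 leading genes, or more of these than of their own, were left out, a limit set after clusters had been seen, with haemoglobin genes not counted. The authors' filters on ribosomal share and DoubletFinder were not used. Counts were summed per class and library, and CPM (UMIs per 1000000) computed, with exact 95% Poisson intervals for levels, conditional binomial intervals for ratios and binomial intervals for shares. A gene at 0 was set to 3 counts. The profile of free RNA came from nearly empty barcodes (1 to 100 UMIs). The 88 ratios of members were recomputed under 12 planned and 4 added alternatives where each applied, and values within sub-clusters, the splits by *Gja5* and *Dll4* and the pathway list were not, apart from 1 *Jag1* value. Members with enough UMIs are named in each comparison between libraries or classes, as are the 3 list genes with the largest ratio in capillary-like cells and the 5 genes most like *Dll4* and *Hes1*. Items withheld for evaluation, and the same ranking for *Notch3*, are not reported here. Python 3.11.15, scanpy 1.11.5, igraph 0.11.9, scipy 1.17.1, numpy 2.4.6 and pandas 2.3.3 were used. The total UMIs per library were 94903163, 103319588 and 90812138.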

Additional observations from a re-analysis of the deposited data

Results flagged for a closer look

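These 3 genes had ratios of opposite sign, with intervals on either side of 0, in different classes or libraries under the same comparison, and none of these differences was tested. *Dll4* was at a log2 ratio of 0.25 in capillary-like and -0.67 in arteriolar-like cells for untreated MRL/lpr over control. The arteriolar-like class held sub-clusters with 184 and 7.55 CPM of *Dll4* in the control and 318 and 11.8 CPM in the untreated library. Each untreated value was above that of the control sub-cluster with like leading genes, but no counting intervals were computed for these values. Over the alternatives the arteriolar-like ratio ran from -1.24 to 0.67 and kept its sign in 9 of 14. *Notch1* was at 0.31 in mesangial-like and -0.11 in capillary-like cells for treated over untreated MRL/lpr, but at -0.27 in mesangial-like cells with doublet calls kept. *Hes1*, capillary-like over arteriolar-like, was at 0.58 in the control and at -0.28 and -0.22 in the untreated and treated libraries.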

How the results depend on the processing

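No paired analysis was possible because each group is 1 library. The 88 ratios of members were recomputed in 1246 combinations with an alternative, of which 1026 stayed within the counting interval of the main value, 218 moved further and 2 turned the sign of a ratio past 2-fold. The 2 were *Jag1* in arteriolar-like cells, untreated over control, at 0.19 with an order-of-magnitude threshold for barcodes, and *Hey1*, capillary-like over arteriolar-like in the control, at 0.090 with the class of each cell taken from its own markers.

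For untreated over control in capillary-like cells, the *Dll4* log2 ratio was -0.032 with at least 2000 UMIs per barcode, 0.070 with at most 5% mitochondrial UMIs, 0.11 with 200 to 3000 genes per barcode and 0.11 at Leiden resolution 2. It was 0.39 with the members used for clustering, 0.094 with classes from each cell's own markers and 0.60 with cells thinned to 1000 UMIs, so its sign was not fixed by these counts. *Hes1* was at -1.17 with 2000 UMIs, -1.11 with 200 to 3000 genes, -1.08 thinned and -1.10 with median of ratios scaling. In podocyte-like cells *Notch2* was at -0.79 with doublet calls kept.

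For treated over untreated, *Dll4* in capillary-like cells was at -0.89 with the 5% mitochondrial limit, -0.90 at resolution 2, -0.94 with own markers and -1.30 thinned. *Hes1* in mesangial-like cells was at -1.11 with 2000 UMIs, -1.10 with the order-of-magnitude threshold, -0.89 with own markers, -0.89 thinned and -1.15 with median of ratios scaling.

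In capillary-like cells *Dll4* (treated over untreated) passed 2-fold in 9 of 14 alternatives and *Hes1* (untreated over control) in 11, and *Hes1* in mesangial-like cells (treated over untreated) in 8 of 15. *Jag1* in arteriolar-like cells, untreated over control, passed it in 4. In arteriolar-like cells the *Dll4* ratio, untreated over control, ran from -1.24 to 0.67, while capillary-like over arteriolar-like *Jag1* in the control stayed between -4.69 and -3.25. Subtracting expected free RNA reversed none of these calls. The 4 added alternatives, chosen after seeing the data, counted haemoglobin genes as foreign, left out fewer mixed sub-clusters, left out 1 treated arteriolar-like cell, which moved only *Jag1* past its interval, or left out 2 treated mesangial-like sub-clusters, which moved only *Notch2* past its interval. Depth limits every gene with few UMIs, and no replicate measures the spread between mice.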

Other observations

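Matrix-rich stromal-like cells, found only in the untreated (117 cells) and treated (303 cells) libraries under these settings, held *Notch3* at 122 CPM (96.8 to 152) and 92.4 CPM (79.1 to 107) and *Heyl* at 44.9 CPM (30.1 to 64.4) and 15.6 CPM (10.4 to 22.4), the latter from 29 UMIs each. *Hes1* there was at 232 CPM (196 to 272) and 123 CPM (108 to 140). For *Notch3* the intervals of the libraries overlapped, and for *Heyl* and *Hes1* the treated library lay below the untreated one. The matrix-rich markers of the class differed the same way, at 13305 and 6769 CPM, and their part was not tested.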
